A study of Mus musculus with 37 samples.

Results

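The comparison was between a pair of PolyA RNA-seq libraries made 6 h after addition of KLA, 1 from Arntl-/- bone marrow-derived macrophages (BMDMs) and 1 from wild-type (WT) BMDMs, taken from their labels out of the 37 samples and the 8 RNA-seq libraries of the series analysed here. KLA (Kdo2-lipid A) is the part of lipopolysaccharide that activates the receptor TLR4. Both groups were cultured for 6 days with M-CSF from the bone marrow of male mice aged 6 to 9 weeks, the WT mice being C57BL/6J (Charles River) and the others lacking Arntl, the gene for Bmal1, in every cell from the germline on, on a C57BL/6 background. The study calls the WT mice littermates in its results, while the labels name the supplier, and how many mice stood behind a library is not given in the sources used here. The table held 24016 genes, and 9908 of them were analyzed, those in which the mean of the 6 h libraries was worth at least 50 reads per 10000000. There was 1 library for each genotype at each of 4 times (0, 6, 24 and 48 h), so the difference at 6 h has no replicate check and no p-value is given. Ranges given with a fold are 95% exact intervals for the counting of reads alone, and PCR copies are not independent molecules.

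Bmal1 pairs with Clock or Npas2 on E-box sequences and activates genes of its own inhibitors, the Per and Cry proteins, and of Nr1d1 and Nr1d2, which encode the nuclear receptors REV-ERBα and REV-ERBβ. The REV-ERBs repress genes that carry their response element, Arntl among them, and the ROR receptors activate through the same element. In macrophages the REV-ERBs are also known as repressors of inflammatory and migratory genes such as Cx3cr1 and Mmp9, while TLR4 acts through NF-κB and interferon regulatory factors.

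Clock genes stood at the low end of the ratios at 6 h and near the high end. Nr1d2, Arntl and Nr1d1 were the 3 genes with the lowest ratios among the analyzed protein-coding genes. The adhesion gene Cadm1 had the highest of these genes, followed by the clock gene Per2, and the clock gene Cry1 was also among the highest. Nr1d2, Arntl and Nr1d1 reached the level required for analysis only in the WT 6 h library, and Per2 only in the Arntl-/- one. Such genes had to differ, so the filter on low values bears on their place in this ranking. Of all 9908 genes, 189 (1.91%) were at least 1.5-fold higher in Arntl-/- cells and 156 (1.57%) at least 1.5-fold lower, with a median log2 ratio of 0.01. At 2-fold, 13 genes (0.131%) were higher and 13 (0.131%) lower. Many of the smaller differences followed the expression level of the gene, as set out next. For the lists below, a count or median without that trend is given where it changed a call or turned the direction.

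The WT 6 h library was the deepest of the 8. It held 27036783 reads on genes against 15461830 in the Arntl-/- 6 h library, a ratio of 1.75. When the analyzed genes were divided into deciles by their mean FPKM, the median log2 ratio was -0.11 in the lowest decile and 0.34 in the highest, a difference of 0.45. The highest decile held 84 of the 189 genes called higher and 0 of those called lower, while the lowest decile held 75 of the 156 called lower and 23 called higher. The median of the highest decile was -0.18, -0.14 and -0.06 at 0, 24 and 48 h. The order of depth differed as well, since before KLA the WT library held 13080318 reads and the Arntl-/- library 18166576, after 24 h they held 10685710 and 15350455, and after 48 h 9191164 and 8587560, so time after KLA and the depth of the pair cannot be told apart in this trend. After a lowess curve of the ratio on expression level was subtracted, 141 genes (1.42%) were higher and 75 (0.757%) lower, and 94 of the 189 and 75 of the 156 were called both with and without the subtraction. In the plot of the ratio by level, Nr1d2, Arntl, Nr1d1, Cadm1, Per2 and Cry1 lie well outside the trend, while Lars2, another of the highest ratios, went from 1.06 to 0.52 with the subtraction and Mir6236 from 1.25 to 0.65. With FPKM as deposited and no size factors, 59 genes were called higher and 383 lower and the median of all genes was -0.12, and after a lowess curve on exon length 84 were higher and 186 lower.

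**Figure D1:**
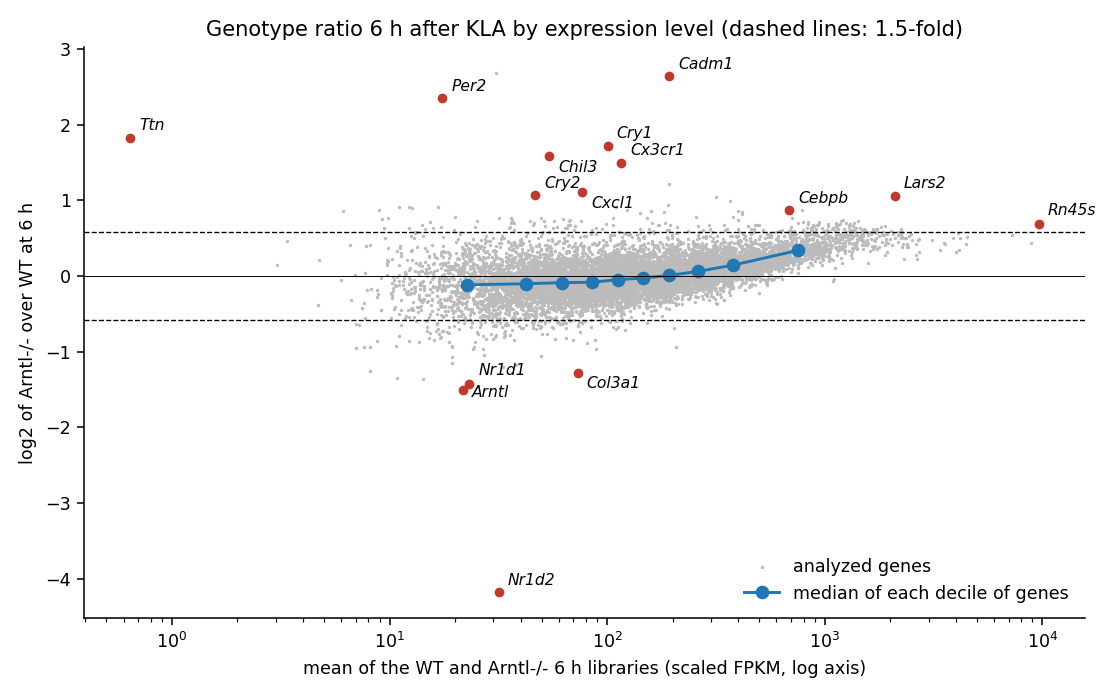
Log2 of the Arntl-/- over the WT 6 h library (vertical) against the mean scaled FPKM of both libraries (horizontal, log axis) for the 9908 analyzed genes, with named genes in red and the median of each decile of genes in blue. The decile medians climb from -0.11 to 0.34, while Nr1d2, Arntl, Per2, Cry1 and Cadm1 lie far outside the dashed 1.5-fold lines.

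**Figure D2:**
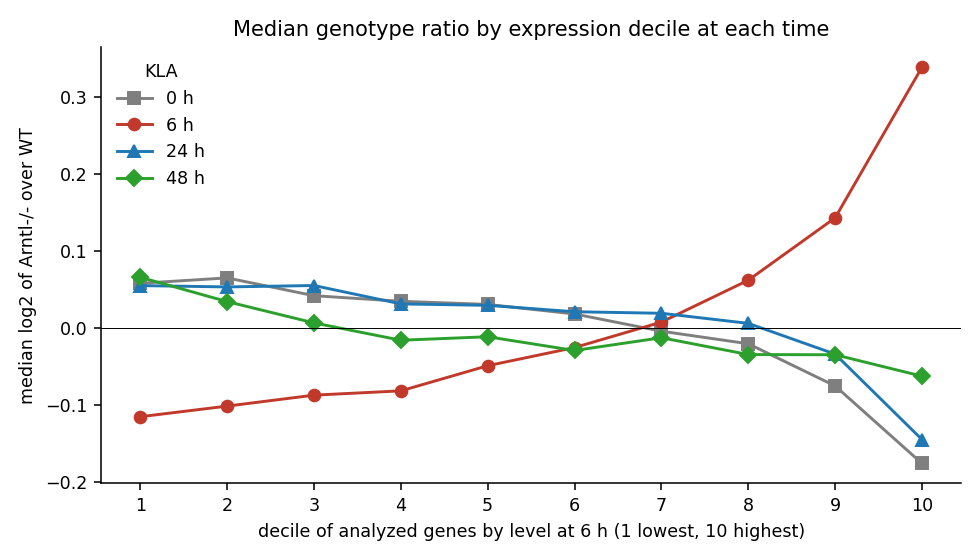
Median log2 of Arntl-/- over WT (vertical) in each decile of the analyzed genes by expression level (horizontal), with 1 line for each time. The 6 h line ends at 0.34 in the highest decile, where the lines of 0, 24 and 48 h lie at -0.18, -0.14 and -0.06.

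Arntl (RefSeq NM_007489, chromosome 7 of mm9, 120350979 to 120457640) was measured first, as a check of the labels. Its scaled FPKM at 6 h was 32.3 in WT cells, from 455 reads, and 11.3 in Arntl-/- cells, from 83 reads, which is 2.83-fold lower (2.25 to 3.65). In the 8 libraries it was 32.3 to 38.7 in WT cells and 11.3 to 20.2 in Arntl-/- cells, so the genotypes did not overlap. The value counts all exons of the gene, and which exons the deletion removes is not given in the sources used here, so the remaining reads are no measure of Bmal1 protein. The other 82 analyzed genes within 10 Mb of Arntl on its chromosome held 0 genes past 1.5-fold in either direction. This count is near the 1.91% higher and 1.57% lower of all genes, and nothing is read from it. The median log2 ratio of the 82 genes was 0.05. After the level correction, 2 of these 82 genes were past 1.5-fold and higher.

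Among the partners of Bmal1, Clock stood at 49.3 in WT and 50.4 in Arntl-/- cells (1.02-fold, 0.953 to 1.09). Npas2, which can take the place of Clock, did not pass the filter on low values, with 8 reads in WT and 23 in Arntl-/- cells (4.61-fold higher with the pseudocount, 2.39 to 14.3 from the reads). Its levels over the times were 0 to 0.394 in WT and 0.576 to 2.18 in Arntl-/- cells. These values rest on few reads, so no order of the genotypes is read from them. Arntl2, a paralog of Arntl, also stayed under the filter, with 29 reads in WT and 8 in Arntl-/- cells (1.82-fold lower, 0.841 to 4.77). Rora, which encodes an ROR receptor, was at 13.4 in WT and 21.1 in Arntl-/- cells (1.57-fold higher, 1.41 to 1.76). Rora differed little at the other times, with log2 ratios of 0.00, -0.28 and -0.01 at 0, 24 and 48 h.

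The REV-ERB genes were low in Arntl-/- cells. Nr1d2 was at 60.2 in the WT 6 h library, from 1361 reads, and at 3.23 in the Arntl-/- one, from 38 reads. This was 18.1-fold lower with the pseudocount of 0.1 and 18.6-fold without it (13.5 to 26.4 from the reads), the lowest ratio of all analyzed genes, with a log2 ratio of -4.18. Nr1d1 was at 33.9 from 456 reads and 12.6 from 88 reads, or 2.68-fold lower (2.14 to 3.43). Over all times the WT libraries held Nr1d2 at 60.2 to 95.4 and the Arntl-/- ones at 2.76 to 6.15, and for Nr1d1 the ranges were 26.2 to 44.5 and 10.0 to 19.6. Neither gene overlapped between the genotypes, which held for 54 of all analyzed genes in this direction (0.545%). Reads were counted on both strands, so antisense reads cannot be told apart from sense reads. Neither gene overlaps another row of the table in span, but the table holds 1 transcript per gene, so overlap with other transcripts was not checked. Several genes named below do overlap a row on the opposite strand in span, among them Ciart, Cry2, Dbp, Bhlhe40, Cadm1, Nid2, Tnfrsf12a, Cxcl16, Il1a, Il1b, Ndufa2 and Aebp1.

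The inhibitors of Bmal1 were higher or level. Per2 was at 5.67 in WT cells, from 161 reads, and at 29.3 in Arntl-/- cells, from 432 reads, which is 5.09-fold higher (4.30 to 6.22). Cry1 was at 46.7 and 154 (3.31-fold higher, 3.01 to 3.64). The Arntl-/- libraries at all 4 times lay above every WT library for both genes, with Per2 at 24.0 to 34.7 against 5.67 to 15.2 and Cry1 at 154 to 208 against 35.7 to 53.5. Of all analyzed genes 70 (0.706%) had such an order of the libraries. Cry2 was at 30.1 and 63.1 (2.09-fold higher, 1.87 to 2.35), although a row on the other strand, D930015M05Rik, overlaps its span and had a log2 ratio of 0.80. Per1 did not follow, with 81.1 in WT and 81.0 in Arntl-/- cells, a ratio of 0.999 (0.922 to 1.08). Per3 was at 11.7 and 13.6 (1.16-fold, 0.974 to 1.39), an interval that includes no difference, and Ciart was under the filter with 101 and 55 reads. Of the 8 repressors and nuclear receptors, 7 were analyzed, 3 were at least 1.5-fold higher and 2 lower, with and without the level correction.

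Among the output factors, Nfil3, a repressor of D-box genes, was at 47.0 in WT and 79.0 in Arntl-/- cells (1.68-fold higher, 1.47 to 1.93). The D-box activators Dbp and Tef were at 26.4 and 33.7 and at 83.5 and 99.5, and the E-box repressors Bhlhe40 and Bhlhe41 at 105 and 117 and at 99.7 and 124. Wee1, a cell cycle kinase, was at 80.9 and 81.0. Only Nfil3 of these 6 analyzed factors was past 1.5-fold, and the list median was 0.29 against 0.01 over all genes. Hlf, the other member of the list, was under the filter with 8 and 0 reads. Bhlhe40 was above every WT library at each time in Arntl-/- cells, at 117 to 134 against 81.1 to 105, with ratios under 1.5-fold.

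**Figure D3:**
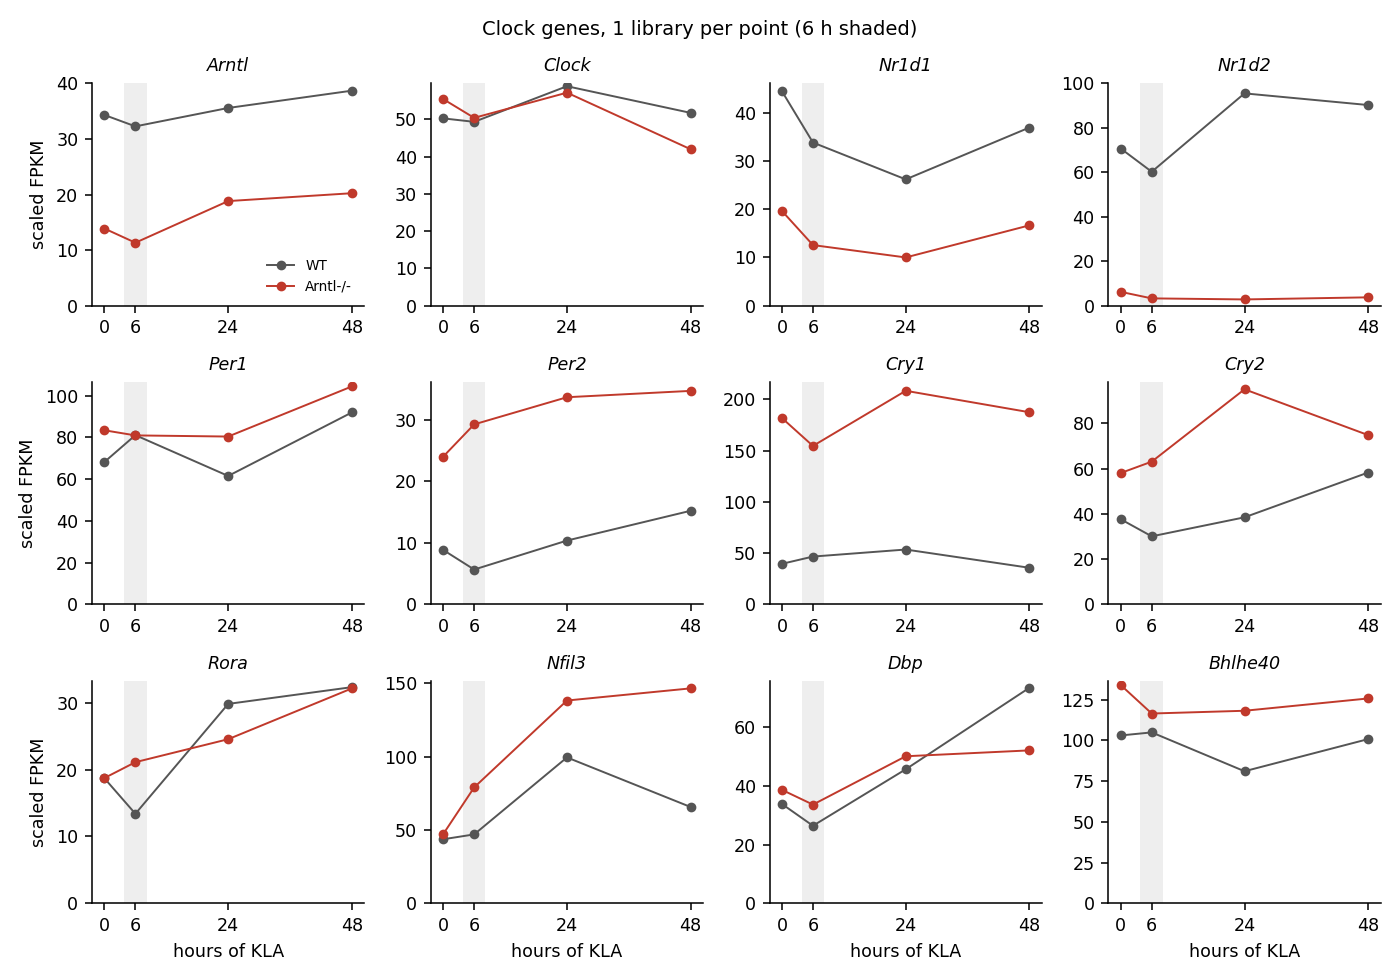
Scaled FPKM (vertical) of 12 clock genes against hours of KLA (horizontal), with 1 library for each point, WT in grey and Arntl-/- in red, and 6 h shaded. Arntl, Nr1d1 and Nr1d2 lie lower and Per2, Cry1 and Cry2 higher in Arntl-/- cells at each time, whereas Per1 and Clock nearly coincide at 6 h.

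The promoters of 4 of the genes with large ratios, all known targets of Bmal1, are printed to show which clock motifs lie near their start sites. The window ran from 250 bases before to 50 bases after the start of the RefSeq transcript in the table, and was read from mm9. Capitals mark the E-box CACGTG, its variant CACGTT, the D-box TTATGTAA and the REV-ERB and ROR element core TAGGTCA, each searched on both strands, so that AACGTG is the variant on the other strand. Nr1d1 lies at chr11:98636642-98636941, Nr1d2 at chr14:19071571-19071870, Per2 at chr1:93355856-93356155 and Cry1 at chr10:84647750-84648049, all on the minus strand and printed 5′ to 3′.
Nr1d1: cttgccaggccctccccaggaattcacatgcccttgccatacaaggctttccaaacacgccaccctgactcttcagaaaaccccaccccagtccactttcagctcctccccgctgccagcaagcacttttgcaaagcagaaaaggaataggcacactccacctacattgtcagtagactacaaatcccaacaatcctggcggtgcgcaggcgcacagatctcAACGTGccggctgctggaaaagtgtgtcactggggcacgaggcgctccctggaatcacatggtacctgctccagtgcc
Nr1d2: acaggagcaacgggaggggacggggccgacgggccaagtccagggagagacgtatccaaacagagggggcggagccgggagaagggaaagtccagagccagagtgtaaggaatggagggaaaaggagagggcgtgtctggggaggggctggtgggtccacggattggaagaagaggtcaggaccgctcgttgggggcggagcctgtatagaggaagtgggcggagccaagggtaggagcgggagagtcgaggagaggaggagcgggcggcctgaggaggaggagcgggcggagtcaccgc
Per2: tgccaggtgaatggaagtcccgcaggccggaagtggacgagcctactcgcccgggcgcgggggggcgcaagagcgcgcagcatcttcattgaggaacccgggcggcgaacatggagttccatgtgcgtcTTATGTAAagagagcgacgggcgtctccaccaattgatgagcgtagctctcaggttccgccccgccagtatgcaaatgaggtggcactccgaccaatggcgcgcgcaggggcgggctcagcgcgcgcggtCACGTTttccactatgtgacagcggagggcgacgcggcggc
Cry1: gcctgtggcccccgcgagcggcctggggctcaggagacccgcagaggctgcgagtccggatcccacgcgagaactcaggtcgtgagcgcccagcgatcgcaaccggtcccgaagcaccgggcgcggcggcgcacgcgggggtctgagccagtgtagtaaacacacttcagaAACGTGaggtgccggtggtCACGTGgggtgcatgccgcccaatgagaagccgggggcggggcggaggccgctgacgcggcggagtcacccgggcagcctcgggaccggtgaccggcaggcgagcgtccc

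Cry1 held an E-box and the variant, Per2 the variant and a D-box, and Nr1d1 the variant, while Nr1d2 held no match in this window. Among 23954 promoters of the table, 7.75% held the E-box, 4.79% the variant, 0.806% the D-box and 2.23% the element core. Among the 189 genes higher in Arntl-/- cells 7.94% held the E-box and among the 156 lower ones 5.77%, against 10.4% of the 9908 analyzed genes. For the element core the shares were 3.17% (6 genes) and 2.56% (4 genes), against 1.67%, and counts this small are not read as a difference. For the variant they were 5.29% and 6.41%, against 5.74%, and for the D-box 0.529% and 0%, against 0.464%. Nfil3 held 1 element core, and Rora, Cx3cr1, Cadm1 and Chil3 held none of these motifs. The E-box was also held by Per1, Wee1, Tef and Bhlhe41, all within 1.5-fold at 6 h, and by Ciart, which was under the filter. Cry2 held the variant and Per3 the D-box, while Arntl, Clock, Npas2, Dbp, Hlf and Bhlhe40 held no match. A match describes the letters only, and the distal sites of these genes were not searched.

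Outside the clock, Cadm1, which encodes an immunoglobulin-like adhesion molecule, had the highest ratio of the protein-coding genes. It stood at 53.4 in WT cells, from 1133 reads, and at 334 in Arntl-/- cells, from 3680 reads (6.24-fold higher, 5.84 to 6.68). In all 8 libraries it was 50.5 to 71.8 in WT and 289 to 334 in Arntl-/- cells. Gm10677, which lies within the span of Cadm1 on the opposite strand, moved with it, with a log2 ratio of 2.68, and reads of the pair cannot be told apart without strand. Cx3cr1, the fractalkine receptor, was at 60.8 and 172 (2.82-fold higher, 2.62 to 3.05), and at the other times at 51.5, 111 and 65.6 in WT and 102, 233 and 266 in Arntl-/- cells. It was higher in Arntl-/- cells at each time, and past 1.5-fold at all 4. Chil3, a chitinase-like protein of alternatively activated macrophages, was at 27.1 and 81.2 (2.99-fold higher, 2.50 to 3.60), with the reservation that near-identical family members share reads.

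Over the 4 times, 11 genes (0.111%) were at least 1.5-fold higher and 9 (0.0908%) lower at every time. The higher ones were Cadm1, Gm10677, Per2, Cry1, Chil3, Cx3cr1, Itga1, Oaf, Tgtp1, Ngp and Il23r, and the lower ones Nr1d2, Arntl, Nr1d1, Nid2, Col3a1, Postn, Etl4, Sparc and Aebp1; several of these names were chosen after their values were seen. The filter bears on these counts, since 5 of the 11 (Chil3, Gm10677, Itga1, Ngp and Per2) passed it only through the Arntl-/- 6 h library and 6 of the 9 (Aebp1, Arntl, Etl4, Nid2, Nr1d1 and Nr1d2) only through the WT one, and such genes had to differ. The same holds for 24 of the 189 genes higher and 46 of the 156 lower at 6 h. For Ngp the 48 h pair held 0 reads in WT and 4 in Arntl-/- cells, so its place among the 11 rests on the pseudocount at that time. Taken alone, the 0 h libraries gave 253 genes higher (2.55%) and 139 lower (1.40%), those of 24 h gave 289 (2.92%) and 203 (2.05%), and those of 48 h gave 483 (4.87%) and 478 (4.82%). Of the 189 genes higher at 6 h, 23 were also higher at 0 h, 25 at 24 h and 24 at 48 h, while 21, 6 and 7 were past 1.5-fold the other way. Of the 156 genes lower at 6 h, 25, 29 and 37 were also lower at these times and 9, 16 and 17 were higher. Most of the genes past 1.5-fold at 6 h were thus within 1.5-fold at any single other time. These comparisons rest on other libraries than the one at 6 h, with size factors computed over all 8.

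Among the cytokine and chemokine genes, Cxcl1, a neutrophil attractant, was the one chemokine past 1.5-fold, at 48.6 in WT and 105 in Arntl-/- cells (2.15-fold higher, 1.79 to 2.59). Before KLA it was at 13.0 and 52.6, after 24 h at 84.8 and 72.4 and after 48 h at 68.4 and 45.4, so the higher genotype changed between 6 and 24 h. The other 4 analyzed CXC chemokines, Cxcl2, Cxcl3, Cxcl10 and Cxcl16, had log2 ratios of 0.24 to 0.45. Of 8 analyzed CC chemokines 0 passed 1.5-fold, a count near the 1.91% higher and 1.57% lower of all genes. Ccl7 was highest at 0.57 and Ccl12 lowest at -0.19. The median of the 8 CC chemokines, 0.41, became 0.02 after the level correction.

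Il1a, the gene of interleukin-1α, was at 26.6 in WT and 45.5 in Arntl-/- cells (1.71-fold higher, 1.42 to 2.05), although Gm14023 overlaps it on the other strand and had a log2 ratio of 1.31. It was the 1 of 11 analyzed genes of the IL-1 family and inflammasome past 1.5-fold. Il1b, the gene of interleukin-1β, was at 162 and 199 (1.23-fold, 1.11 to 1.36), and Il1bos overlaps it on the other strand. Nos2, the inducible nitric oxide synthase, was at 105 and 135 (1.29-fold, 1.20 to 1.38), and at 0, 24 and 48 h its log2 ratios were 1.40, 1.25 and 0.94 against 0.37 at 6 h. Thus Nos2 was higher in Arntl-/- cells at each time, and its smallest ratio was the one at 6 h. Tnf was at 631 and 785 with a log2 ratio of 0.32 that became 0.00 after the level correction, and Ccl2 was at 1846 and 2515 with 0.45 that became -0.11. Csf1, the gene of M-CSF, was at 84.7 and 123 (1.46-fold, 1.34 to 1.58), and its log2 ratio of 0.54 became 0.60, past 1.5-fold, after the level correction. Il6 was under the filter with 76 reads in WT and 33 in Arntl-/- cells (1.20-fold lower, 0.786 to 1.86), an interval that includes no difference.

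Of 13 NF-κB subunits and inhibitors, 22 TLR receptors and signalling genes, 12 feedback inhibitors and 12 immediate-early factors analyzed, 0 passed 1.5-fold in either direction, a count near the 1.91% higher and 1.57% lower of all genes, from which nothing is read about these lists. Their medians were 0.14, 0.06, 0.07 and 0.16, and after the level correction 0.06, 0.0018, -0.0048 and -0.05. Cd14, the co-receptor of TLR4, had the highest ratio of the TLR list at 0.54, which became 0.02. Nfkbia, the inhibitor IκBα, had the highest ratio of the NF-κB list at 0.44, which became 0.14 after the level correction, and Rel the lowest at -0.05. The 38 analyzed type I interferon-stimulated genes also held 0 genes past 1.5-fold, with a median of 0.13, or 0.10 after the level correction. Among 16 interferon-inducible GTPases Tgtp1 was the one past 1.5-fold, at 36.9 and 62.9, and its near-identical copy Tgtp2 was at 103 and 125, so the share of reads between the pair is uncertain.

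Cebpb, a transcription factor of myeloid cells, was at 485 in WT and 886 in Arntl-/- cells (1.83-fold higher, 1.74 to 1.91). At 0 h the order was the opposite, with 740 in WT and 402 in Arntl-/- cells. At 24 h the values were 1141 and 1164, and at 48 h 992 and 1608, again past 1.5-fold with a log2 ratio of 0.70. The Cebpb log2 ratio of 0.87 at 6 h became 0.58 after the level correction, just under 1.5-fold. It was the 1 of 19 analyzed lineage and IRF factors past 1.5-fold without the correction. Ly6c2, a marker of inflammatory monocytes, was at 130 and 249 (1.93-fold higher, 1.70 to 2.18), with its paralog Ly6c1 a possible source of shared reads. F10, the coagulation factor X gene, was at 76.1 and 144, and the proteoglycan gene Vcan at 11.5 and 21.8, both 1.89-fold higher.

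**Figure D4:**
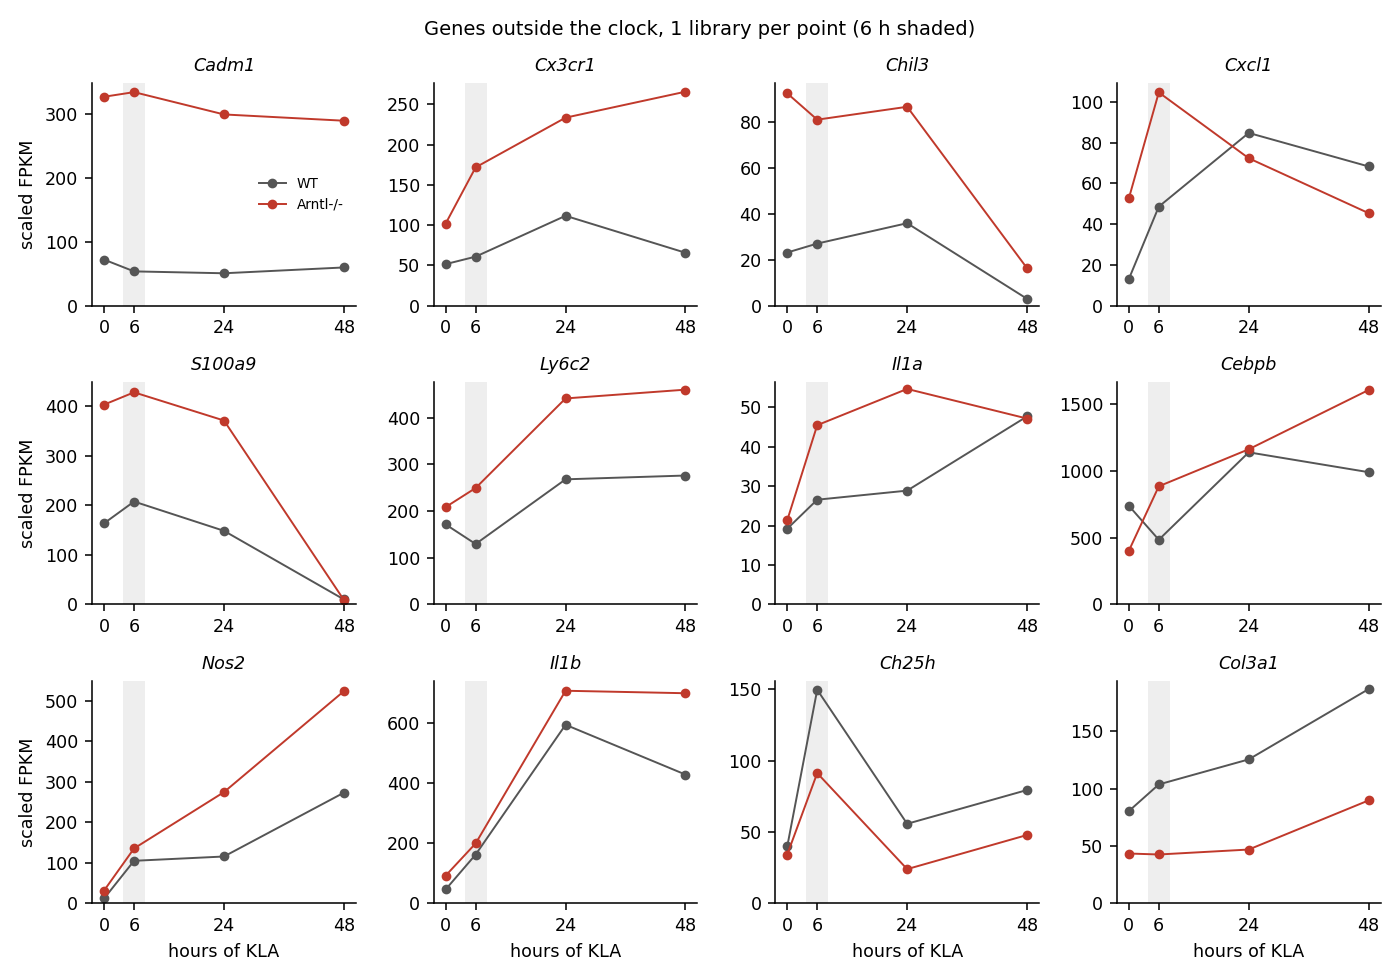
Scaled FPKM (vertical) of 12 genes outside the clock against hours of KLA (horizontal), with 1 library for each point, WT in grey and Arntl-/- in red, and 6 h shaded. Cadm1, Cx3cr1 and Chil3 lie higher and Col3a1 lower in Arntl-/- cells at each time, while the lines of Cxcl1 and Cebpb cross.

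Markers of other cells moved with the genotype in places, and their part in the results was not tested; in bulk RNA, fewer cells of a type and less RNA per cell cannot be told apart. The defining markers of macrophages were present, with Lyz2 at 7561 and 10266, Emr1 at 1459 and 1900 and Csf1r at 1230 and 1597 in WT and Arntl-/- cells. The 11 macrophage markers had a median log2 ratio of 0.41, which became -0.09 after the level correction, and 1 of them, Cd63, was past 1.5-fold and higher, and 0 after the correction. Of 11 neutrophil markers in the table, 4 were analyzed and all 4 were higher, which were S100a9 (207 and 428), S100a8 (282 and 514), Mmp8 (691 and 1097) and Ngp (33.3 and 55.2), and with the level correction 3 of the 4 remained past 1.5-fold. At 0, 24 and 48 h the medians of these 4 markers were 0.77, 0.55 and 0.12, and 2, 2 and 1 of them were past 1.5-fold and higher. Summed over the 11 genes the level was 1240 in WT and 2132 in Arntl-/- cells at 6 h, and over the 8 libraries 1240 to 2570 in WT and 1981 to 2885 in Arntl-/- cells. Mpo and Elane, the granule enzymes of neutrophil precursors, were listed at 0 in both 6 h libraries. Markers of dendritic cells, of mast cells and basophils and of lymphocytes gave 0 analyzed genes, and of those of erythroid and megakaryocytic cells 1, Pf4, was analyzed.

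Markers of fibroblasts and stroma were lower in Arntl-/- cells. All 12 analyzed members, of 16 in the table, had ratios below 0, with a median log2 ratio of -0.44 against 0.01 over all genes, and -0.38 after the level correction. Past 1.5-fold were 4 of them, Col3a1 at 104 and 42.6 (2.43-fold lower, 2.23 to 2.66), Postn at 67.0 and 32.3, Sparc at 105 and 57.0 and Acta2 at 38.2 and 21.5. Col3a1 encodes a fibrillar collagen, Postn and Sparc matrix proteins and Acta2 smooth muscle actin. The summed level of the 16 markers was 878 and 592 at 6 h, and over the 8 libraries 751 to 1813 in WT and 545 to 1083 in Arntl-/- cells. The list medians at 0, 24 and 48 h were -0.42, -0.55 and -0.70. Nid2, a basement membrane gene, was at 20.5 and 7.93 (2.56-fold lower, 2.07 to 3.24), and Tjp1, of tight junctions, at 15.5 and 6.04 (2.55-fold lower, 2.08 to 3.21).

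Other genes that were lower lay in several functions. Ch25h, the cholesterol 25-hydroxylase induced by TLR ligands, was at 150 in WT and 91.3 in Arntl-/- cells (1.64-fold lower, 1.44 to 1.87), and it was the 1 of 15 analyzed LXR, efflux and scavenger genes past 1.5-fold, in a list whose median of 0.11 became -0.14 after the level correction. Before KLA it was at 39.9 and 34.2, after 24 h at 55.8 and 24.0 and after 48 h at 79.5 and 47.9, so it was lower in Arntl-/- cells at each time. Fcrls, an Fc receptor-like scavenger, was at 272 and 141 (1.92-fold lower, 1.77 to 2.09), and Folr2, the folate receptor β of macrophages, at 251 and 156 (1.61-fold lower, 1.44 to 1.80). Both were also lower at 0, 24 and 48 h, by log2 ratios of -1.12, -0.92 and -0.39 for Fcrls and -0.60, -0.84 and -0.49 for Folr2. Slc39a10, a zinc importer, was at 46.4 and 20.2 (2.29-fold lower), and its log2 ratios at 0, 24 and 48 h were -0.01, -0.28 and 0.14. Tnfrsf12a, the receptor of TWEAK, was at 118 and 60.3 (1.96-fold lower, 1.61 to 2.39). The 50 analyzed cell cycle and DNA replication genes held 0 past 1.5-fold, against 1.91% higher and 1.57% lower of all genes. Below 0 were 36 of the 50, with a list median of -0.11.

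Of the gene lists, that of the cytoplasmic ribosomal proteins held the most calls. Over all genes 1.91% were higher and 1.57% lower, and in the highest decile of level 84 of 990 genes were higher and 0 lower. Of 79 cytoplasmic ribosomal protein genes, 39 were at least 1.5-fold higher in Arntl-/- cells and 0 lower, with a median log2 ratio of 0.58. After the level correction 1 of the 79 was past 1.5-fold, Rpl22 at 202 and 320, and the median was 0.17. Their medians at 0, 24 and 48 h were -0.37, -0.33 and -0.01. The respiratory chain and ATP synthase genes gave 8 of 57 higher and 0 lower, with a median of 0.38 that became 0.17 and 1 gene left, Ndufa2, and glycolysis and HIF-1 targets gave 5 of 26 and 0, with a median of 0.31 that became 0.08 and no gene left. Gapdh itself was at 1762 in the WT and 2722 in the Arntl-/- 6 h library, against 2648 and 2187 before KLA, and the WT 6 h value was the lowest of the 8. Fth1, the ferritin heavy chain, was at 7547 and 11784 at 6 h, again the lowest of the 8 in the WT 6 h library, and the precursor ribosomal RNA Rn45s was at 7355 and 11874, while Lars2 and Mir6236 were at 1364 and 2845 and at 1777 and 4232. After the level correction Fth1 went from a log2 ratio of 0.64 to -0.16, Rn45s from 0.69 to -0.11, Gapdh from 0.63 to 0.07 and Lars2 from 1.06 to 0.52, so none of these 4 remained past 1.5-fold. Lysosomal genes gave 2 of 36 higher and 0 after the correction, with a median of 0.31 that became -0.05. Matrix metalloproteinases and TIMPs gave 3 of 12 higher, which were Mmp8, Mmp14 (998 and 1586) and Adamts1 (12.4 and 19.3), and 1 after the correction. Mmp9, a REV-ERB target in macrophages, was at 1592 and 2232 with a log2 ratio of 0.49 that became -0.04.

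**Figure D5:**
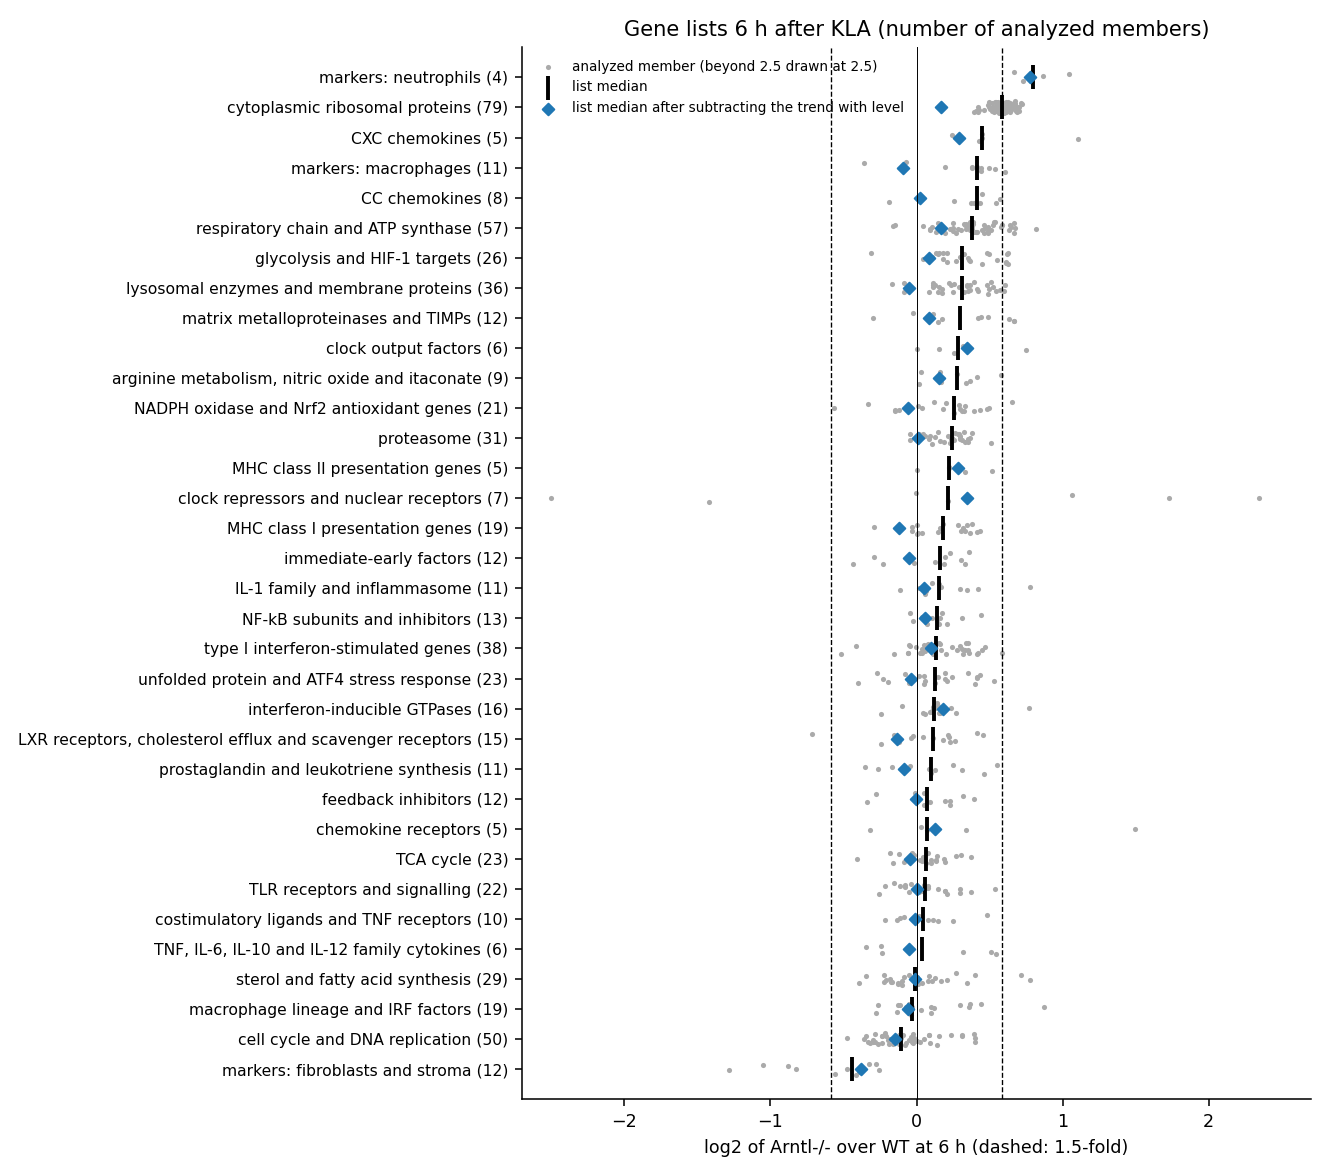
Log2 of Arntl-/- over WT at 6 h (horizontal) for the analyzed members of each gene list (grey points, rows), with the list median in black and the median after subtracting the trend with expression level in blue. The ribosomal protein median moves from 0.58 to 0.17 and the macrophage marker median from 0.41 to -0.09, while the neutrophil markers stay at 0.80 and 0.78 and the stromal markers at -0.44 and -0.38.

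Fatty acid and sterol synthesis gave 2 of 29 higher, Scd1, a stearoyl-CoA desaturase, at 11.7 and 19.2, and Pmvk, of the mevalonate pathway, at 78.6 and 134, with a list median of -0.01. The 9 analyzed genes of arginine metabolism, nitric oxide and itaconate were all above 0 and within 1.5-fold, with Irg1, the itaconate synthase, highest at 1203 and 1794. Of 23 genes of the unfolded protein and ATF4 response, of 31 proteasome genes and of 23 TCA cycle genes 0 passed 1.5-fold, with medians of 0.12, 0.24 and 0.06 that became -0.04, 0.01 and -0.04. After the level correction 1 of them, Phgdh of serine synthesis, was past 1.5-fold and higher, at 0.62 in place of 0.53. Lists with 0 genes past 1.5-fold were also those of costimulatory ligands and TNF receptors (10 analyzed, median 0.05, corrected -0.01), prostaglandin and leukotriene synthesis (11, 0.10, corrected -0.08), MHC class II presentation (5, 0.22) and MHC class I presentation (19, 0.18, which became -0.12 after the level correction). The 6 analyzed cytokines of the TNF, IL-6, IL-10 and IL-12 families held 0 as well, with a median of 0.04 that became -0.05. Of these, 2, Csf1 and Csf3, were past 1.5-fold and higher after the correction. For all lists named here with 0 genes, the count is near the 1.91% higher and 1.57% lower of all genes. Nothing is read from it about those lists. Of 21 NADPH oxidase and Nrf2 antioxidant genes 1, Cyba, was higher at 1407 and 2213, and 0 after the correction, with a list median of 0.25 that became -0.06. Of 5 chemokine receptors Cx3cr1 alone was past 1.5-fold. In a list of 20 clock and inflammatory genes of interest to the study, 18 were analyzed, 5 higher and 3 lower. Some of them were picked for display on these same samples, and the count is no independent evidence. The 4 analyzed Y-linked genes were expressed in both libraries, with Uty lowest at a log2 ratio of -0.32.

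At the edge of the 1.5-fold call, the genes just inside were Cep350 (43.4 and 65.2) and Atp5j2 (477 and 716) among the higher and Acp6 (102 and 67.7) and Lcmt1 (85.0 and 56.6) among the lower. The genes just outside were Ppp2r3a (10.5 and 15.8) and Rpl21 (325 and 487) and, among the lower, Gemin6 (80.3 and 53.5) and Wbscr27 (23.7 and 15.8).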

How the data were processed

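PolyA RNA was sequenced in the 8 libraries named above. The authors aligned reads to mm9 with STAR and counted them with HOMER on the exons of RefSeq transcripts, on both strands, with 1 transcript per gene and, per the file header, tags limited to 3 at a position, and the deposited FPKM are scaled per 10000000 reads and per kb. STAR and HOMER versions are not given in the sources used here. Of the value columns, 4 that belong to other times were not used, and 1 incomplete line of 24017 was left out. Since 1 read is worth a fixed amount of FPKM times length in a library, reads could be recovered: 100% of the low values checked were whole (tolerance 0.02 of a read or the rounding of the file, if larger). The recovered reads reached 26.2 to 50.3 per exon base in the gene most densely covered in each library (exon length at least 300 bases), more than 3 per position and strand would give, so how that setting acted is not known.

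Libraries were scaled by size factors (median of ratios over the 8, 0.918 to 1.13). Log2 ratios and the folds taken from them used a pseudocount of 0.1, the intervals beside them did not, and both ratios and folds understate the change of low genes, and calls were made at 1.5-fold on the genes with a mean of at least 50 scaled reads, for which the other 14108 genes were too low. With 1 library per group no test was run, and the counting intervals are Clopper-Pearson at the 95% level. The level correction was a lowess curve (fraction 0.3) on the mean log2 value of the 6 h libraries. Genes were named by rule: the clock lists, 20 genes the study measured, showed or cited from earlier work, the 15 highest and 15 lowest ratios, the 10 most expressed genes past 1.5-fold in each direction, and of each of the 42 lists the members past 1.5-fold and the extremes. Of 793 listed genes 790 were in the table. The members and lists were chosen with earlier results of these data known. Steps were tested on simulated data. The tools were statsmodels 0.14.6, scipy 1.17.1, matplotlib 3.10.9, pandas 2.3.3 and numpy 2.4.6 under Python 3.11.15.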

Additional observations from a re-analysis of the deposited data

Results flagged for a closer look

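Several named genes were past 1.5-fold at 6 h and past it in the opposite direction at another time, and with 1 library at each time the difference was not tested. Cebpb had a log2 ratio of 0.87 at 6 h and -0.88 at 0 h. Cxcl1 had 1.11 at 6 h and -0.59 at 48 h, and Scd1 0.71 and -0.82 at the same times. Lrrc49 and Exog were lower at 6 h (-1.15 and -1.07) and higher at 24 h (0.64 and 0.69). Tmem160, Lars2 and Mir6236 had 1.21, 1.06 and 1.25 at 6 h and -1.09, -1.14 and -1.52 at 0 h. Rn45s had 0.69 at 6 h, -1.04 at 0 h and -0.82 at 24 h, and the ribosomal protein genes Rpl39 and Rps29 had 0.67 and 0.70 at 6 h and -0.70 and -0.59 at 0 h. After the level correction the 6 h ratios of Rn45s, Rpl39, Rps29, Lars2 and Cebpb were -0.11, 0.30, 0.28, 0.52 and 0.58, no longer past 1.5-fold. Ttn, whose highest scaled FPKM in any library was 1.05, had 1.83 at 6 h, -1.66 at 24 h and -0.73 at 48 h.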

How the results depend on the processing

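The 189 genes higher and 156 lower became 59 and 383 with FPKM as deposited, which moved the median over all genes from 0.01 to -0.12, 141 and 75 after the lowess on level, 84 and 186 after a lowess on exon length, 267 and 326 with a filter at 20 reads, 120 and 14 with a filter at 200, 1919 and 2455 with no filter, and 13 and 13 at 2-fold. The difference of 0.45 between the highest and the lowest decile became 0.35 after the lowess on length, 1.16 with no filter and, by construction, -0.014 after the lowess on level. Of lists with at least 5 analyzed genes, 16 had a median at least 0.2 from that of all genes, and 5 after the lowess on level. Of the named genes analyzed, 113 were past 1.5-fold, and this became 56 with FPKM as deposited, 53 and 56 after the lowess on level and on length, and 72 with the filter at 200, which left Arntl out. Of 32 list medians 12 changed sign with FPKM as deposited and 12 after the lowess on level, and of 182 named genes 5 and 13. Examples are the medians of interferon-stimulated genes (-0.00096), interferon-inducible GTPases (-0.017) and genes near Arntl (-0.089) with FPKM as deposited, which shifts all genes alike, and those of MHC class I presentation (-0.12), NADPH oxidase and Nrf2 (-0.058) and lysosomal genes (-0.051) and the ratios of Fth1 (-0.16) and Rn45s (-0.11) after the lowess on level. The Arntl ratio stayed within its counting interval under the alternatives that gave one. Apart from these shifts by construction the cause was not tested. Leaving out a library was not possible with 1 per group. No paired analysis was possible because the difference at 6 h alone has 1 library in each group, and a fit over the pairs of all 4 times, which would ask another question, was not run.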
